A study of Bos taurus with 9 samples.

Results

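RUNX1-OT1 to RUNX1-OT5 are 5 long non-coding RNA (lncRNA) transcripts that overlap the transcription factor gene RUNX1 (ENSBTAG00000004742) on bovine chromosome 1. They were taken by name from the 2257 lncRNA transcripts of the series, and all transcripts whose name begins with RUNX1-OT were kept. RUNX1 itself was chosen by measured values: RUNX1-OT2 (TCONS_00007663), RUNX1-OT3 (TCONS_00007664) and RUNX1-OT4 (TCONS_00007666) were known from earlier results to differ between time points. Their FPKM and log2 fold changes are therefore given as a description, without a test. FPKM count the fragments of a transcript relative to its length and to all mapped fragments of a library.

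RNA was sequenced from MAC-T cells, an established line of bovine mammary epithelial cells (bMECs) that is used as a culture model of mastitis. Untreated cells formed the 0 h group, and cells exposed to 50 ng/μL lipopolysaccharide (LPS), the endotoxin of Gram-negative bacteria, were collected at 6 and 12 hpi, with 3 replicates in each group. Each time point was a 6-well plate of its own, so that differences between plates and between times cannot be told apart, and no untreated plate was collected at 6 or 12 h. The sources used here do not say whether the replicates were wells of a plate. SD measure the spread between these samples, which may be technical. The p-values weigh a difference between groups against the spread of each lncRNA between these same samples, moderated by that of all tested lncRNAs.

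RUNX1 belongs to the runt family of transcription factors, which bind DNA together with the partner protein CBFB. It is best known from the formation of blood cells, and in the mouse and human mammary gland it is expressed in epithelial cells and takes part in the luminal lineage. A lncRNA that overlaps a gene shares part of the gene's span, and RNA from such a transcript and from the gene itself can be hard to separate by short reads.

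The spans of the 5 transcripts were nested but for 8 bp and shared nearly the same end. In the coordinates of ARS-UCD1.2, RUNX1-OT1 (TCONS_00007662) lay between 147163867 and 147244730 on chromosome 1 and spanned 80864 bp. RUNX1-OT2 ran from 147184463 to 147244722 and RUNX1-OT3 from the same start, 147184463, to 147244730, so that their spans of 60260 and 60268 bp differed by 8 bp at the end. RUNX1-OT4 spanned 31113 bp from 147213610 to 147244722, and RUNX1-OT5 (TCONS_00007667) spanned 7365 bp from 147237366 to 147244730. Of the 5, OT2 and OT4 thus shared the end at 147244722, and OT1, OT3 and OT5 the end at 147244730. Exons and strand were not analysed here. The values of OT2 and OT3 are uncertain for that reason, since how far their exons differ is not known. StringTie, by which the study quantified lncRNAs, has to divide reads between transcripts that overlap. The part of this division in the differences between OT2 and OT3 was not tested here.

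**Figure D1:**
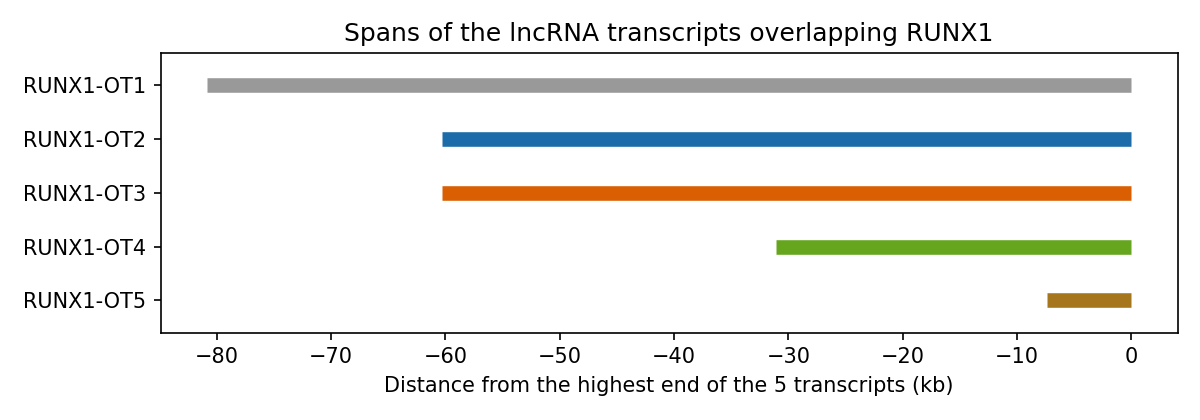
Spans of the 5 RUNX1-OT transcripts as bars, with the distance from the highest end of the 5 in kb on the x axis and the transcripts on the y axis. RUNX1-OT2 and RUNX1-OT3 share their start and differ by 8 bp at the other end, which is too little to be seen at this scale.

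The primers that the study designed for RUNX1-OT3 in qRT-PCR are shown because OT3 is the transcript on which the difference between 6 and 12 hpi turns. Each is 20 nt long, and whether the pair also amplifies RUNX1-OT2 was not analysed here.
RUNX1-OT3 forward: ccatagcgtcacaaagagtc
RUNX1-OT3 reverse: ggctgaaagatgtctaaggg

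Among the 9 libraries, 0 h replicate 3 resembled the LPS libraries more than the other 0 h libraries did. In the study, 0 h replicates 1 and 2 had a lower mapped ratio and lower base quality than every other library. Likeness to LPS libraries and likeness in library quality can thus not be told apart here. Over the 1943 tested lncRNAs outside RUNX1, its log2(FPKM + 0.1) values correlated with those of the 6 LPS libraries at Pearson r between 0.682 and 0.718, against 0.569 to 0.641 for 0 h replicates 1 and 2. Its r with 0 h replicates 1 and 2 was 0.692 and 0.672, and theirs with each other was 0.685. Such an r is taken across lncRNAs, which are no replicates of each other. The number of fragments behind an FPKM is unknown here, and no counting interval could be set. In bulk RNA of this kind, fewer cells of a type and less RNA per cell cannot be told apart. None of the 8 mammary epithelial, 4 fibroblast or 4 leukocyte marker genes gave its symbol to a lncRNA. LncRNAs named by an Ensembl identifier were out of reach of this lookup. The cell type could thus not be checked against its markers here.

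RUNX1-OT1, the longest transcript, was the most abundant of the 5 on average and the steadiest. It measured 3.25, 2.48 and 1.86 FPKM in the 0 h replicates, 2.72, 1.72 and 1.76 FPKM at 6 hpi, and 1.89, 2.52 and 1.99 FPKM at 12 hpi. The 3 groups overlapped, with means of 2.53 ± 0.696, 2.06 ± 0.567 and 2.13 ± 0.337 FPKM (SD, n = 3 each). Its coefficient of variation (CV) over the 9 libraries was 23.5%, and 12.5% of the tested lncRNAs had a lower CV. Log2 fold changes, all on the log2(FPKM + 0.1) scale, came to −0.28 for 6 hpi and −0.21 for 12 hpi against 0 h, with a standard error (SE) of 0.29.

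RUNX1-OT2 was at or near 0 in the 6 hpi libraries and highest at 12 hpi. Its FPKM was 1.40, 1.50 and 0.336 at 0 h. At 6 hpi it was listed at 0 in replicates 1 and 2 and at 0.393 FPKM in replicate 3. In the 12 hpi replicates it measured 1.71, 3.27 and 2.07 FPKM. All 3 libraries of 12 hpi thus lay above the 6 others, while 0 h and 6 hpi overlapped through 0 h replicate 3, which was at the level of 6 hpi replicate 3. The mean was 1.08 ± 0.645 FPKM at 0 h and 2.35 ± 0.817 FPKM at 12 hpi (SD, n = 3 each). On the log2(FPKM + 0.1) scale, OT2 differed by −2.58 at 6 hpi and by 1.22 at 12 hpi against 0 h, and by 3.80 between 12 and 6 hpi (SE 0.72). Only 3 of the 1948 tested lncRNAs had a larger absolute difference between 12 and 6 hpi.

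RUNX1-OT3 had the opposite order, high at 6 hpi and at or near 0 at 12 hpi. It measured 3.14, 2.06 and 1.94 FPKM in the 6 hpi replicates, with a mean of 2.38 ± 0.660 (SD, n = 3). At 12 hpi it was listed at 0 in replicates 1 and 2 and measured 0.0405 FPKM in replicate 3. In untreated cells it was at 0.0460 FPKM in replicate 1, listed at 0 in replicate 2, and at 1.57 FPKM in replicate 3. The 6 hpi libraries lay above all others, and 0 h replicate 3 stood apart from the other 0 h libraries and below the lowest 6 hpi library. Against 0 h, OT3 had a log2 fold change of 3.06 at 6 hpi and of −1.37 at 12 hpi, and of −4.44 between 12 and 6 hpi (SE 0.95), for which 0 of the tested lncRNAs had a larger absolute value. As libraries at 0 enter these differences, their size depends on the added 0.1 FPKM and is no bound: with a pseudocount of 1 FPKM, the difference between 12 and 6 hpi became −1.72 for OT3 and 1.56 for OT2.

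Differences of OT2 and OT3 against 0 h rested on which 0 h libraries were used, and those between 12 and 6 hpi do not involve them. Without 0 h replicate 3, OT3 differed by 4.33 at 6 hpi and by −0.11 at 12 hpi, and OT2 by 0.61 at 12 hpi. Leaving out 0 h replicates 1 and 2 together gave 0.54 for OT3 and −1.36 for OT2 at 6 hpi, and −3.90 for OT3 and 2.44 for OT2 at 12 hpi. Between 12 and 6 hpi, leaving out any 1 library kept OT2 between 3.41 and 4.56 and OT3 between −4.60 and −4.23.

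The mean level of RUNX1-OT4 was lowest at 0 h and highest at 12 hpi. In the 0 h replicates it measured 0.593, 0.471 and 0.913 FPKM, at 6 hpi 1.51, 0.882 and 0.948 FPKM, and at 12 hpi 1.80, 1.75 and 0.947 FPKM. The 12 hpi libraries lay above the 0 h libraries by a narrow margin, 12 hpi replicate 3 being close to 0 h replicate 3, and the 6 hpi libraries overlapped with both. Means were 0.659 ± 0.228, 1.11 ± 0.343 and 1.50 ± 0.479 FPKM (SD, n = 3 each). The log2 fold change of OT4 was 0.68 at 6 hpi and 1.07 at 12 hpi against 0 h (SE 0.36). At 12 hpi it came to 0.88 without 0 h replicate 2, to 0.92 and 0.94 without 12 hpi replicates 1 and 2, and to 0.61 without 0 h replicates 1 and 2 together. With values centred on the library median or quantile-normalized it was 0.93 in both, and with a pseudocount of 0.5 FPKM it was 0.77. Centring changed every log2 difference between 12 hpi and 0 h by −0.13. These alternative values of OT4 are under the fold limit of 1. Other alternatives kept it above 1: 1.02 without 0 h replicate 1, 1.30 without 0 h replicate 3 and 1.35 without 12 hpi replicate 3. It was 1.12 with a pseudocount of 0.05 FPKM and 1.07 with a replicate block.

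RUNX1-OT5, the shortest transcript, varied widely within every group. It measured 0.208, 1.23 and 0.667 FPKM in the 0 h replicates and 1.47, 0.966 and 0.412 FPKM at 6 hpi. At 12 hpi it was listed at 0 in replicate 1 and measured 1.40 and 0.158 FPKM in replicates 2 and 3. All groups overlapped. Its log2 fold change was 0.49 for 6 hpi and −1.0 for 12 hpi against 0 h and −1.49 for 12 against 6 hpi, with an SE of 0.96 for each.

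**Figure D2:**
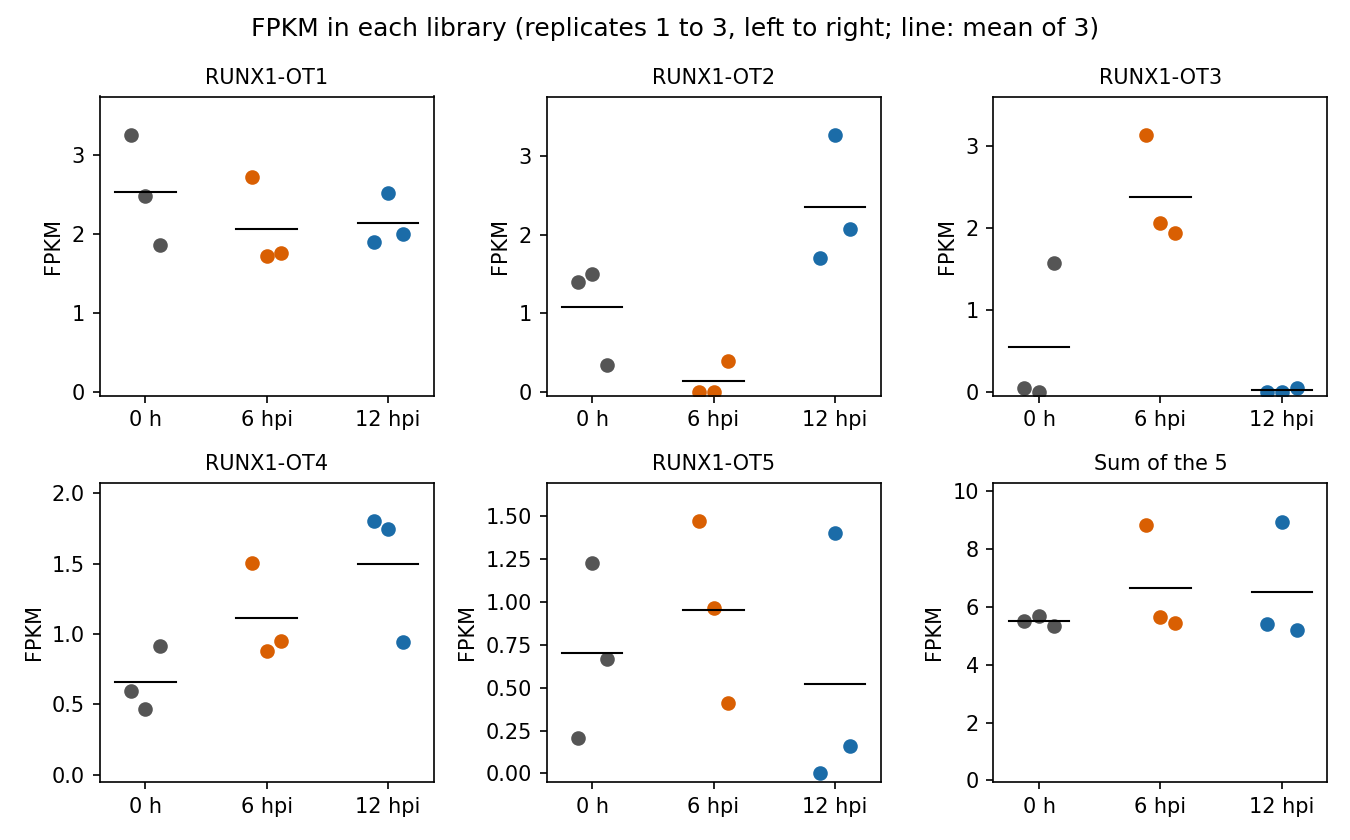
FPKM of each RUNX1-OT transcript and of their sum (y axis, each panel with its own scale) in the 9 libraries by time point, with replicates 1 to 3 from left to right as points and the group mean as a line. RUNX1-OT2 is lowest and RUNX1-OT3 highest at 6 hpi, 0 h replicate 3 stands with the 6 hpi libraries in both, and the sum stays between 5.21 and 8.94 FPKM.

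Summed over the 5 transcripts, the groups overlapped in all 3 comparisons. The sum was 5.50, 5.67 and 5.35 FPKM at 0 h, 8.84, 5.63 and 5.45 FPKM at 6 hpi, and 5.41, 8.94 and 5.21 FPKM at 12 hpi. 6 hpi replicate 1 and 12 hpi replicate 2 stood above the other libraries, which lay close together. Means were 5.51 ± 0.165, 6.64 ± 1.91 and 6.52 ± 2.10 FPKM (SD, n = 3 each), and the log2 fold changes against 0 h were 0.23 at 6 hpi and 0.20 at 12 hpi. Without 6 hpi replicate 1 the first became 0.01, and without 12 hpi replicate 2 the second became −0.05. In those 2 libraries the sum without OT2 and OT3 was high as well, at 5.70 and 5.67 FPKM against 3.10 to 4.18 FPKM in the other libraries.

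OT2 and OT3, which have nearly the same span, varied far less when added together. Their sum was 1.45, 1.50 and 1.91 FPKM at 0 h, 3.14, 2.06 and 2.33 FPKM at 6 hpi, and 1.71, 3.27 and 2.11 FPKM at 12 hpi. The 6 hpi libraries all lay above the 0 h libraries, and the 12 hpi libraries overlapped with both. The CV over the 9 libraries was 30.3% for the sum, against 92.8% for OT2 and 124% for OT3. Its mean was 1.62 ± 0.252 FPKM at 0 h, 2.51 ± 0.561 at 6 hpi and 2.36 ± 0.810 at 12 hpi (SD, n = 3 each). On the log2(FPKM + 0.1) scale, the sum differed by 0.59 at 6 hpi and by 0.48 at 12 hpi against 0 h. Between 12 and 6 hpi it differed by −0.11.

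Between 6 and 12 hpi the pair differed in how it was divided more than in its sum. RUNX1-OT3 made up 100%, 100% and 83.2% of the pair in the 6 hpi replicates and 0%, 0% and 1.92% in the 12 hpi replicates. At 0 h it made up 3.18%, 0% and 82.4%. Each of the 9 libraries held nearly only OT2 or mainly OT3, and 0 h replicate 3 was on the side of the 6 hpi libraries. The total share of the pair in the summed FPKM was 29.5 ± 5.38% at 0 h, 38.3 ± 3.93% at 6 hpi and 36.2 ± 4.48% at 12 hpi (SD, n = 3 each).

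**Figure D3:**
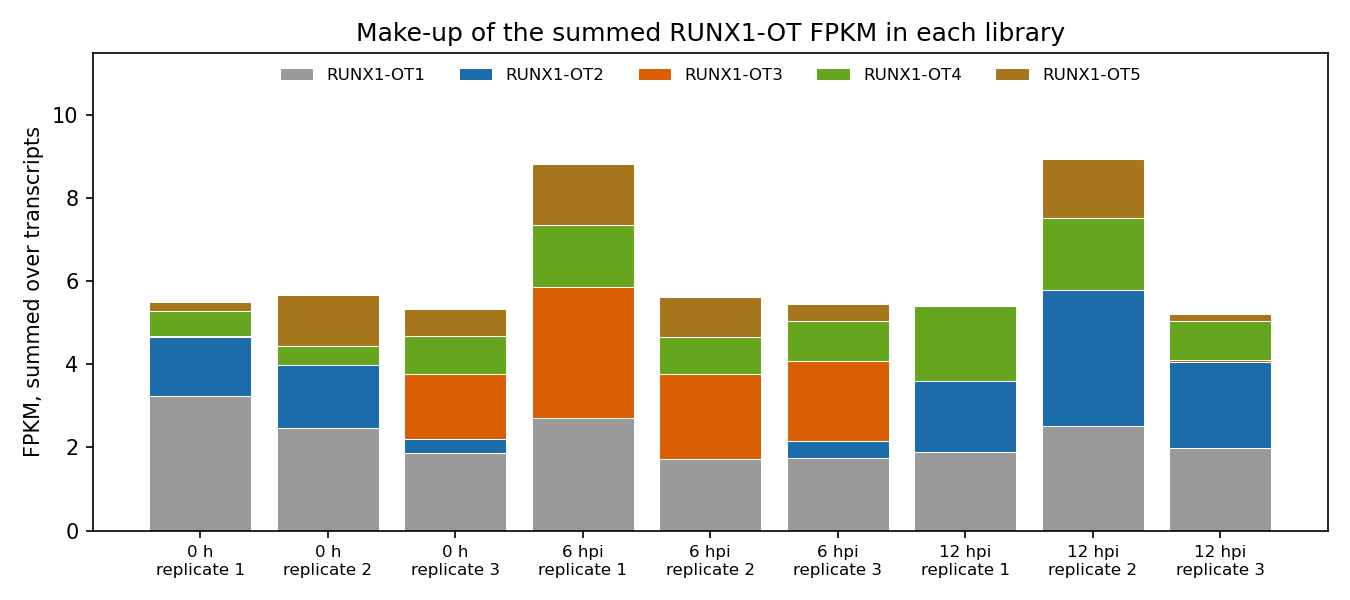
Stacked bars of the FPKM of the 5 RUNX1-OT transcripts (y axis, from 0) in each of the 9 libraries (x axis). Where RUNX1-OT3 makes up a visible part of a bar, in 0 h replicate 3 and at 6 hpi, RUNX1-OT2 is small or at 0, and the other 3 transcripts are present in all bars but for RUNX1-OT5 in 12 hpi replicate 1.

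Grouped by end position, the 5 transcripts also differed in their shares between time points. The transcripts ending at 147244722, OT2 and OT4, made up 36.3%, 34.7% and 23.4% of the summed FPKM at 0 h, 17.0%, 15.7% and 24.6% at 6 hpi, and 65.0%, 56.1% and 57.9% at 12 hpi. The 12 hpi libraries lay above all others, and 0 h and 6 hpi overlapped through 0 h replicate 3 and 6 hpi replicate 3. On average this share was 31.4 ± 7.05%, 19.1 ± 4.82% and 59.7 ± 4.68% (SD, n = 3 each). In FPKM, those ending at 147244722 summed to 1.74 ± 0.424, 1.24 ± 0.324 and 3.85 ± 1.04, and those ending at 147244730 to 3.77 ± 0.302, 5.40 ± 1.71 and 2.67 ± 1.10 (SD, n = 3 each). Since 1 sum holds OT2 and the other OT3, these shares repeat the difference within the pair in part and are not independent of it.

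**Figure D4:**
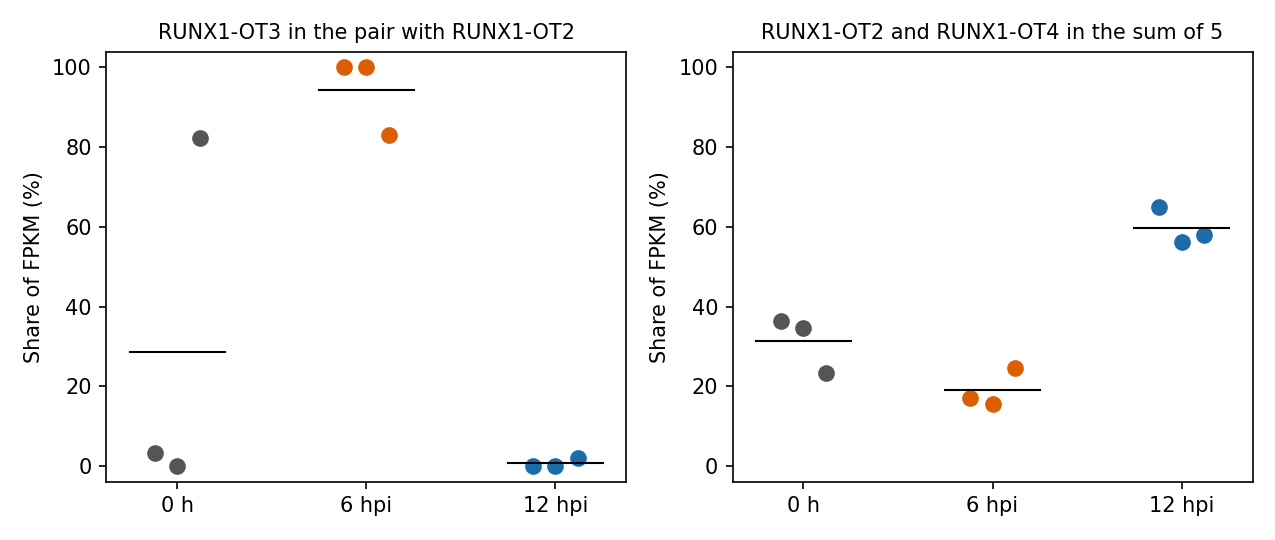
Share in percent (y axis) of RUNX1-OT3 in the pair with RUNX1-OT2 (left) and of RUNX1-OT2 and RUNX1-OT4 in the summed FPKM (right), with libraries as points and group means as lines. The share of RUNX1-OT3 is 83.2% or more at 6 hpi and 1.92% or less at 12 hpi, and 0 h replicate 3 has 82.4%.

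Over the 9 libraries, OT2 and OT3 ran against each other, with Pearson r = −0.92 and Spearman rho = −0.89 on the log2(FPKM + 0.1) values. The 9 other pairs of the 5 transcripts had r between −0.41 and 0.40. These are descriptions over 9 libraries of 3 time points, and the transcripts share libraries, and OT2 and OT3 nearly all of their span.

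Averaged over the 9 libraries, each of the 5 was above the median lncRNA of these cells, OT5 only slightly. Their mean FPKM over the 9 libraries was higher than that of 87.4% of all 2257 lncRNAs for OT1, 74.1% for OT2, 67.2% for OT3, 71.0% for OT4 and 52.9% for OT5, where the median lncRNA had 0.684 FPKM. For OT2 and OT3 these means cover libraries at or near 0. The median of OT3 over the 9 libraries was 0.0460 FPKM, and the mean of OT2 at 6 hpi was 0.131 FPKM. At 0 h the groups of values of OT1 lay above those of the 4 others, whose ranges overlapped. At 6 hpi OT1 and OT3 overlapped and lay above OT2, OT4 and OT5. At 12 hpi OT1 overlapped with OT2 and OT2 with OT4, and OT3 and OT5 overlapped and lay below OT1 and OT2. The CV of OT3 was higher than that of 97.0% of the tested lncRNAs and that of OT2 higher than 90.5%, while OT4 (44.3%) was close to the median CV of 46.4%.

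All 5 passed the filter for testing, FPKM above 0.5 in at least 3 of 9 libraries, which 1948 lncRNAs did. The thresholds of the study were a log2 fold change beyond 1 in either direction and, here from limma, an unadjusted p under 0.05. They are applied to the 5 transcripts only to set their count beside that of all lncRNAs, and are no test of transcripts that were chosen on these contrasts. OT3 (higher) and OT2 (lower) lay past them at 6 hpi against 0 h, which is 2 of 5 beside 6.06% of the tested lncRNAs. At 12 hpi against 0 h, 1 of 5 lay past them, the higher OT4, beside 9.6% of all, and OT4 was not past them with centred or quantile-normalized values. Between 12 and 6 hpi, OT2 was higher and OT3 lower, 2 of 5 beside 5.39% of all. Groups did not overlap for 1 of 5 at 6 hpi against 0 h (16.6% of all), for 2 of 5 at 12 hpi against 0 h (22.6%) and for 2 of 5 between 12 and 6 hpi (15.1%). As these contrasts chose the gene, nothing is read from the counts. The median log2 fold change of the 5 was 0.49, −0.21 and 0.07 in the 3 comparisons, beside 0.05, 0.11 and 0.07 over all tested lncRNAs. Comparisons with 0 h share the same control libraries, and the 3 comparisons share libraries in pairs. Over all tested lncRNAs, 0 passed an adjusted p under 0.05 in any of the 3 comparisons with limma, where 191, 276 and 157 had an unadjusted p under 0.05.

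To place the pair among others, all lncRNA transcripts of the same gene whose starts and ends both lay within 10 bp of each other were collected, and 174 pairs in 96 genes were found. The share of 1 transcript in such a pair differed by a median of 12.7 percentage points between 12 and 6 hpi. For OT2 and OT3 the difference was 93.7 points, the second of the 174. Only the pair SPTBN4-OT1 and SPTBN4-OT4 differed more, by 100 points, at a mean summed level of 0.680 FPKM against 2.16 FPKM for the RUNX1 pair. Among the 159 pairs with a mean sum of at least 1 FPKM, the RUNX1 pair came first, and among the 243 pairs within 100 bp it came second. It had been chosen for this very difference, so its place is a description.

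Widely varying shares were common among such pairs. A transcript can belong to several pairs, so genes with many transcripts weigh more in the counts and medians over pairs. From the lowest to the highest of the 9 libraries, the share of 1 transcript spanned a median of 61.8 points, and 25 pairs, that of RUNX1 among them, spanned 100 points. In 120 of the 174 pairs the sum had a lower CV than both transcripts, with a median CV of the sum of 35.3%. Taken on FPKM rather than on log2 values, the Pearson r of the 2 transcripts was negative in 105 pairs, with a median of −0.12. On the same scale the RUNX1 pair had −0.84.

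**Figure D5:**
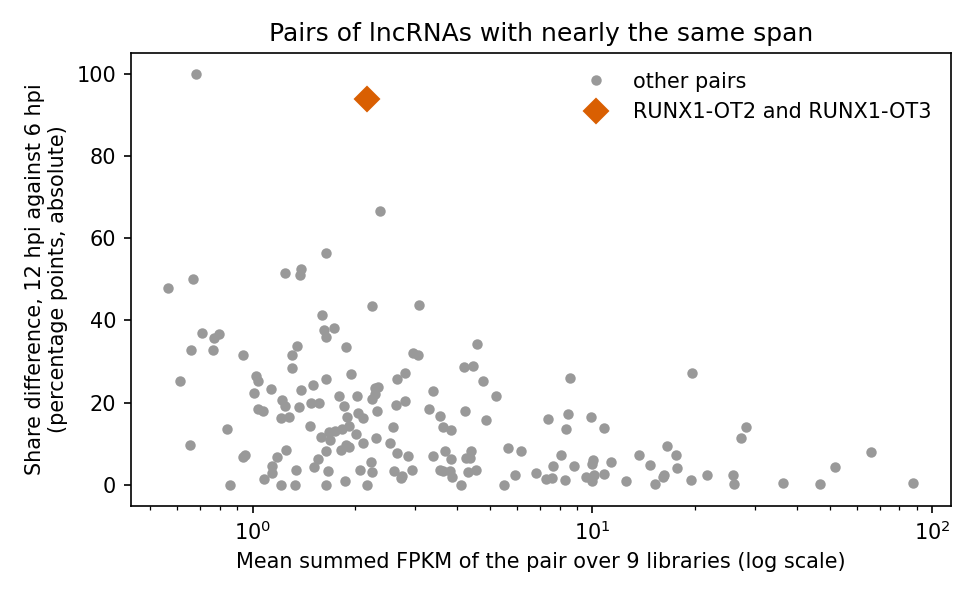
Difference of a transcript's mean share in its pair between 12 and 6 hpi (y axis, absolute, in percentage points) against the mean summed FPKM of the pair over 9 libraries (x axis, log scale), for 174 pairs of lncRNAs of the same gene with nearly the same span. The RUNX1-OT2 and RUNX1-OT3 pair (diamond) lies at 93.7 points and 2.16 FPKM, below a single other pair and above the remaining ones.

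Elsewhere in the genome, the lncRNAs most like each transcript were sought by Pearson r of log2(FPKM + 0.1) over the 9 libraries, among 1943 tested lncRNAs. For RUNX1-OT1 they were FOXJ3-OT1 (r = 0.961), CNOT4-OT1 (0.935) and ENSBTAG00000038755-OT3 (0.922), and the least like was ZNF684-OT1 (−0.906). For RUNX1-OT2 they were ENSBTAG00000004873-AS1 (r = 0.941), MARK1-OT1 (0.928) and ENSBTAG00000001133-AS1 (0.887), with NR6A1-OT1 lowest (−0.911). RUNX1-OT3 was most like LINC518 (r = 0.887), LINC663 (0.886) and EEF1AKMT1-201 (0.877), and least like MARK1-OT1 (−0.957). MARK1-OT1 was thus named for both members of the pair, on opposite sides. As OT2 and OT3 ran against each other, these places are not independent.

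MARK1-OT1, which overlaps the kinase gene MARK1, had a much narrower range than OT2. It measured 1.72, 1.70 and 1.38 FPKM at 0 h, 1.42, 1.30 and 1.43 FPKM at 6 hpi, and 1.77, 1.83 and 1.73 FPKM at 12 hpi. As with OT2, its 0 h replicate 3 was at the level of the 6 hpi libraries and its 12 hpi libraries lay above all others. The margin was narrow, with 1.73 FPKM in 12 hpi replicate 3 against 1.72 FPKM in 0 h replicate 1. LINC518, on chromosome 16, measured 0.985, 0.860 and 1.00 FPKM at 0 h, 1.60, 1.69 and 1.80 FPKM at 6 hpi, and 0.762, 0.828 and 0.788 FPKM at 12 hpi. Its 3 groups did not overlap, yet its 0 h replicate 3 was close to the other 0 h libraries. The log2 fold change of LINC518 was −1.01 (SE 0.23) between 12 and 6 hpi, with an adjusted p of 0.332 from limma. MARK1-OT1 and LINC518 were picked because they followed OT2 or OT3 over these same libraries. Their order of groups is therefore a description, and the p of LINC518 is no independent test.

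For RUNX1-OT4 the most like were ENSBTAT00000083556 (r = 0.907), ENSBTAG00000017045-AS2 (0.901) and ENSBTAG00000051588-OT5 (0.894), with LINC162 lowest (−0.955). RUNX1-OT5 was most like LINC1464 (r = 0.913), CCDC88A-OT1 (0.885) and LINC333 (0.883), and least like LINC514 (−0.819). With so many lncRNAs and 9 libraries, high coefficients arise in any such search, and they are given without a p. By Spearman rho the first place went to other lncRNAs for 5 of 5 transcripts, among them LINC663 for OT3 (rho = 0.966) and RHBDL2-OT1 for OT2 (0.946).

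No other lncRNA of the 101 on chromosome 1 lay within 1 Mb of the 5 transcripts, and 3 lay within 3 Mb. The nearest, ENSBTAG00000030670-AS1, was 1043801 bp away. It measured 3.93, 1.65 and 0.114 FPKM in the 0 h replicates and was listed at 0 in all 6 LPS libraries. Again 0 h replicate 3 was the 0 h library closest to the LPS libraries. It did not pass the filter and was not tested. C1H21orf58-OT1, at 1159230 bp, had a log2 fold change of 0.80 for 6 hpi and of 0.64 for 12 hpi against 0 h, with adjusted p of 0.628 and 0.559 from limma. LINC45, at 1495085 bp, had −0.17 and −0.61, with adjusted p of 0.898 and 0.492. GATD3A-OT1 and GATD3A-OT2, both at 3005807 bp, completed the 5 nearest, and 0 of the 4 tested met the thresholds in any comparison.

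Other genes of RUNX1 biology were looked up by the gene symbol given to a lncRNA. A lncRNA named by an Ensembl identifier, such as the antisense lncRNAs here, could not be found in this way. The numbers found are therefore no measure of how many lncRNAs lie at these genes. Of 37 genes of the RUNX family, its cofactors and its partners, 2 had a lncRNA named for them. EP300-OT1 overlaps the gene of the acetyltransferase EP300, a coactivator, and had log2 fold changes of −0.23 and −0.13 at 6 and 12 hpi against 0 h, with adjusted p of 0.843 and 0.883 from limma. NCOR1-OT1 overlaps the gene of the nuclear receptor corepressor NCOR1 and had −0.11 and 0.03, with adjusted p of 0.919 and 0.972. Neither met the thresholds between 12 and 6 hpi (0.10 and 0.14). By symbol, no lncRNA was named for the 21 mammary epithelial genes listed, among them the luminal regulators GATA3, ELF5 and ESR1.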

How the data were processed

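LncRNA values were FPKM as deposited by the authors, a table for each of 9 libraries, of which that of 6 hpi replicate 3 holds all 9 (the 8 others are equal to it). Per the study's methods, rRNA-depleted stranded libraries were mapped with HISAT2, and lncRNAs were assembled over all libraries (Cuffmerge) and quantified with StringTie. Per the study's methods, the authors had filtered the deposited set, FPKM above 0.5 being among the criteria. The submitters' notes name ARS-UCD1.2, Cuffdiff 2.1.1 and DESeq 1.10.1. No columns of the authors' own comparisons were used. CircRNA tables (TPM) were not used, because circRNAs are listed under running numbers without gene or position, so the planned comparison of circRNAs of RUNX1 was not run.

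Columns were matched to samples by name. In R 4.3.3, limma 3.58.1 with a mean-variance trend was fitted to log2(FPKM + 0.1) of the 1948 lncRNAs above 0.5 FPKM in at least 3 of 9 libraries, all 9 libraries in 1 fit without covariates, two-sided, with Benjamini-Hochberg adjustment within each comparison. A pseudocount reduces the fold changes of low transcripts. The fit was tested on simulated data. The study's thresholds (log2 fold change beyond 1 in either direction, unadjusted p under 0.05) were used. SE are from this fit. Sums and shares were computed on FPKM.

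The transcripts, lists and tests were chosen with earlier results of these data known. Named were all RUNX1-OT transcripts, neighbouring lncRNAs past the thresholds or otherwise the 5 nearest, lncRNAs of the RUNX and mammary lists, for each RUNX1-OT transcript the 3 most like and the least like lncRNA, and, chosen after their values were seen, the SPTBN4 pair and the first lncRNAs by Spearman rho. EP300-OT1 and NCOR1-OT1 were named as the only members of their list found by gene symbol. Gene names are those of the table. The sequences of the primers are from the study's supplement. A genome of the build of the files was not used here, so transcript and promoter sequences are not shown.

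Libraries of the same replicate number did not deviate together (correlations of deviations from the group means −0.0749 to 0.0758), so no block was used. Alternatives were other pseudocounts, no filter, centred or quantile-normalized values, a replicate block, only the libraries compared, each library left out, 0 h replicates 1 and 2 left out together, other windows, and Spearman correlation.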

Additional observations from a re-analysis of the deposited data

How the results depend on the processing

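Fold changes below are log2 values, and none of those that had met the thresholds changed sign under the alternatives. With a pseudocount of 0.5 or 1 FPKM, RUNX1-OT2 differed by −1.28 or −0.84 at 6 hpi against 0 h and by 2.19 or 1.56 between 12 and 6 hpi, and RUNX1-OT3 by −2.46 or −1.72 between 12 and 6 hpi. With 1 FPKM, OT3 at 6 hpi was at 1.26 and RUNX1-OT4 at 12 hpi at 0.58. The size of the changes of OT2 and OT3 is thus set in part by the pseudocount, since each has libraries at 0. Without 0 h replicates 1 and 2, the values against 0 h at 6 hpi were −1.36 (OT2), 0.54 (OT3) and 0.22 (OT4). At 12 hpi they were 2.44, −3.90 and 0.61 in the same order. RUNX1-OT1 changed sign, to 0.11 at 6 hpi and 0.18 at 12 hpi. Its groups overlapped when all libraries were used.

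The number of lncRNAs past the thresholds was 118, 187 and 105 for 6 hpi against 0 h, 12 hpi against 0 h and 12 against 6 hpi. It was 18, 32 and 17 with a pseudocount of 1 FPKM, and 59 and 93 in the first 2 without 0 h replicates 1 and 2. Leaving out 1 library each time gave 85 to 178 (the latter without 0 h replicate 3), 145 to 271, and 87 to 119. With the replicate block the counts were 115, 181 and 103 and the fold changes of the 5 transcripts did not move. A window of 3 Mb gave 3 neighbouring lncRNAs in place of 0, and pairs with a mean sum of at least 1 FPKM put the RUNX1 pair in place 1 (these pair limits were chosen after seeing the data). The cause of these shifts was not tested. The number of fragments behind each FPKM is not known, which limits what can be said of values at 0. Depth of whole libraries is known from the study, which lists more mapped reads for every 0 h library than for any LPS library. Depth and LPS exposure can thus not be told apart in comparisons with 0 h.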
